A study of Homo sapiens with 6 samples.

Results

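Gangliosides are glycolipids with sialic acid that sit in the outer leaflet of the plasma membrane. To determine how the genes that build and degrade them differed between melanoma cells with an HDAC8 expression vector and cells with an empty vector (EV), 10 genes were read from a table of 60504: UGCG, B4GALT5, B4GALT6, ST3GAL5, ST8SIA1, ST8SIA5, B4GALNT1, B3GALT4, NEU3 and GM2A. They were chosen by gene symbol, as enzymes or cofactors of the synthesis and breakdown of the gangliosides GM3, GD3 and GD2, and all 10 were found. The RNA came from WM164, a human melanoma cell line of genotype BRAFV600E, and both groups had 3 libraries. Cells of the EV group had been transfected with the empty expression vector and those of the HDAC8 group with the HDAC8 expression vector, and both were kept under hygromycin selection. Whether either line is 1 clone is not given in the sources used here. HDAC8 is a class I histone deacetylase, and the study asked how its expression changes the transcriptional state of melanoma cells.

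Ganglioside synthesis starts in the Golgi apparatus, where ceramide receives a glucose and then a galactose to give lactosylceramide. Sialic acid added to lactosylceramide gives GM3, a further sialic acid gives GD3, and N-acetylgalactosamine turns GM3 into GM2 and GD3 into GD2. GD3 and GD2 are abundant on many melanomas, and antibodies against GD2 are used in other tumors of neural crest origin. Sialidases at the plasma membrane and hydrolases in the lysosome take these lipids apart again.

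Total counts ran from 34741083 to 42041462 per library and overlapped between the groups. Library HDAC8 1 stood apart from the other libraries of its group, with a chi-square over degrees of freedom across genes of 153 and 102 against them and of 26 between them. Mitochondrially encoded transcripts took 9.66% to 12.8% of the counts in EV and 4.46% to 7.94% in the libraries labelled HDAC8, lowest in HDAC8 1. The HDAC8 transcript itself had 383.8, 404.4 and 478.8 normalized counts in EV and 484.8, 445.5 and 473.7 in the libraries labelled HDAC8, so it did not check the labels, and whether transcripts of the vector are counted under this gene is not given in the sources used here (log2 change 0.15 with SE 0.28, DESeq2 adjusted p = 0.856). Of 7 melanocyte lineage markers, 6 were expressed in every library, while TYRP1 had 62.9, 32.7 and 21.7 normalized counts in EV and 0, 0 and 17.4 in the libraries labelled HDAC8. PMEL, MLANA, TYR and DCT, 4 of the 7, were called lower and 0 higher. Level per length is counts per kilobase of transcript, scaled to the same sum in each library. Summed over all 7 markers, it was 6.27e+03 to 7.94e+03 in EV and 3.61e+03 to 5.29e+03 in the libraries labelled HDAC8. This scale lay 0.17 (log2, median of 14314 genes) higher in HDAC8 than in EV, so these sums are to be read beside that shift. On that scale 7 fibroblast markers summed to between 47.8 and 66.2 against 28 and 53, most of it LUM, with 0 of 4 called and DCN at 0 in all libraries. The 5 leukocyte markers summed to between 89 and 110 against 170 and 249, most of it CD68, with CD3E and CD68 called higher and PTPRC with reads in 1 library. The 6 epithelial markers summed to between 80.4 and 104 against 134 and 184, most of it KRT18, with 0 of 5 called and EPCAM at 0 throughout. The 4 endothelial markers summed to between 0.708 and 1.42 against 0.872 and 1.67, with 0 of 2 called and CDH5 at 0 throughout. The part of these markers in the results was not tested.

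Among the 10 genes, B4GALT5 and ST3GAL5 fell and B4GALT6 rose in the libraries labelled HDAC8. These are the genes of lactosylceramide and GM3 synthesis. UGCG, of the step before them, was not called, and neither were ST8SIA1 and B4GALNT1, whose enzymes make GD3 and GD2 from GM3. A difference between earlier and later steps was not tested. A call needed a DESeq2 adjusted p (corrected over all genes) under 0.05 together with a change of 0.58 or more on the log2 scale, in either direction. By that rule 1 of 10 genes was higher and 2 were lower, against 11.0% of all genes called in either direction, 5.57% called higher and 5.44% called lower. Among the 6520 genes that averaged 1000 or more normalized counts, as 8 of the 10 did, 17.2% were called. The median log2 fold change of the 10 genes was -0.08, and it was -0.003 over all genes with an adjusted p. In 6 of the 10 genes the groups did not overlap, against 24.0% of all genes tested. That share covers genes at all count levels and was not computed for genes that averaged 1000 or more normalized counts. Since the libraries are pools of cells, fewer cells that express a gene and less RNA per cell cannot be told apart. The labels number the libraries as biological replicates but do not say that they came from separate cultures, so p-values measure the spread between these libraries.

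**Figure D1:**
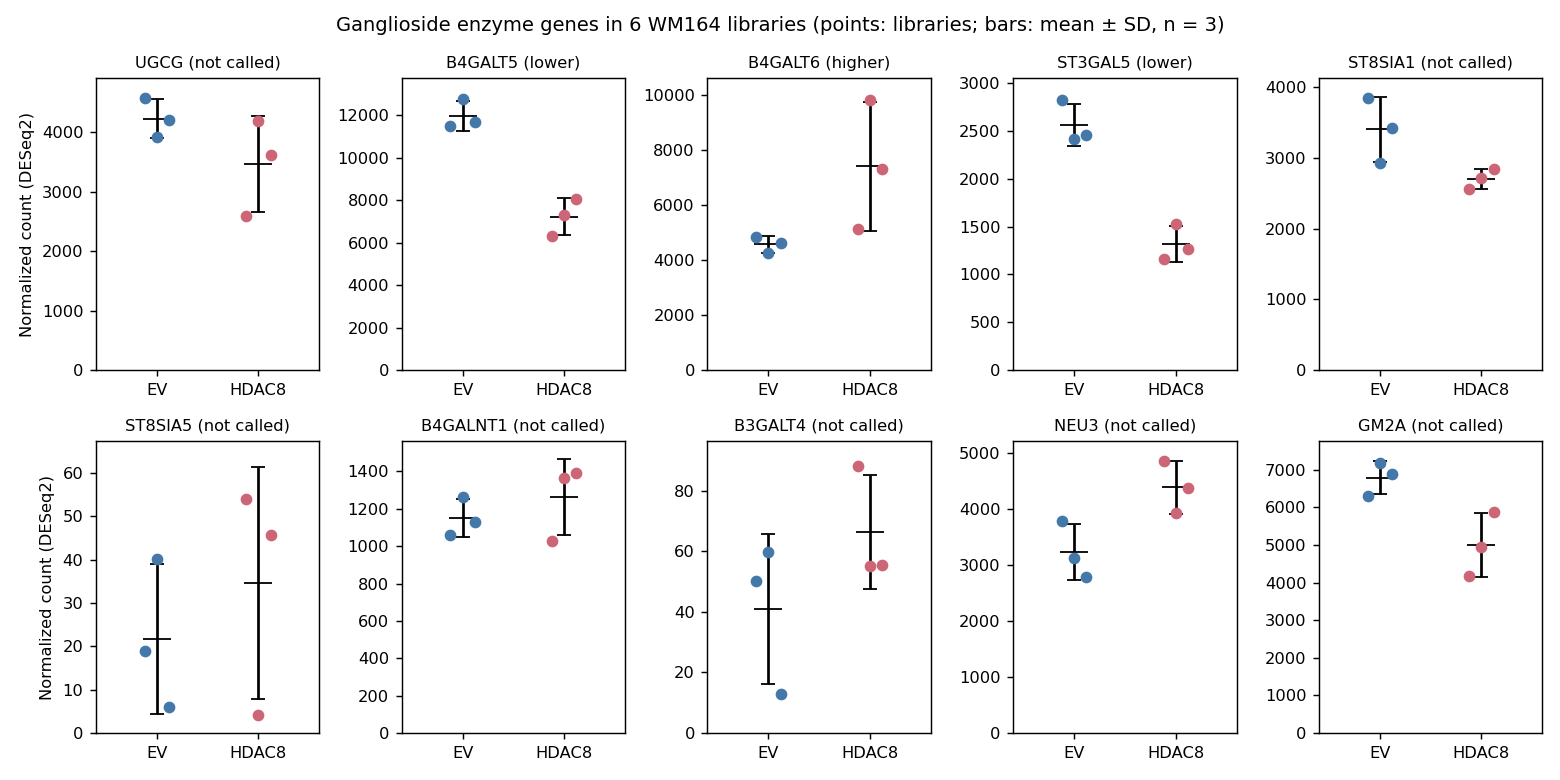
Normalized counts (vertical axis, each panel from 0) of the 10 ganglioside genes in the 3 EV and 3 HDAC8 libraries, with points for libraries and bars for the mean ± SD. B4GALT5 and ST3GAL5 sit lower and B4GALT6 sits higher in every HDAC8 library than in any EV library.

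The first committed step was examined first. UGCG (ENSG00000148154), which encodes glucosylceramide synthase, lies on chromosome 9 from 111896814 to 111935369 on the plus strand (GRCh38, GENCODE release 44, as for all positions below). Its normalized counts were 4577.1, 3922.5 and 4204.5 in EV and 2602.0, 4190.8 and 3614.2 in the libraries labelled HDAC8. HDAC8 1 was the lowest library, HDAC8 2 lay within the EV range, and the groups overlapped. On the log2 scale the change was -0.29 (SE 0.19) with a DESeq2 adjusted p of 0.377, and its 95% interval ran from -0.65 to 0.08.

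Lactosylceramide synthesis has a pair of isoenzymes, and their genes moved in opposite directions. B4GALT5 (ENSG00000158470, chromosome 20, 49632945 to 49713878, minus strand) encodes the galactosyltransferase that is the main lactosylceramide synthase in many tissues. It had 11465.4, 12749.1 and 11660.9 normalized counts in EV and 6325.9, 7280.7 and 8048.4 in the libraries labelled HDAC8, so that every HDAC8 library was under every EV library. Its mean fell by 39.6% (fitted), from 11958.5 ± 691.7 to 7218.3 ± 863.0 (SD, n = 3). DESeq2 gave a log2 fold change of -0.73 (SE 0.14) and an adjusted p of 6.32e-06. B4GALT6 (ENSG00000118276, chromosome 18, 31622246 to 31685836, minus strand) encodes the other lactosylceramide synthase, which is known for its expression in brain. It had 4839.3, 4236.3 and 4625.2 normalized counts in EV and 5120.2, 9807.3 and 7291.6 in the libraries labelled HDAC8. The lowest HDAC8 library, HDAC8 1, lay just above the EV range and HDAC8 2 was the highest. Its mean rose from 4566.9 ± 305.7 to 7406.4 ± 2345.6 (SD, n = 3), 1.62-fold with a 95% interval from 1.23 to 2.13 (log2 change 0.70 with SE 0.20, DESeq2 adjusted p = 0.00666). This call rested on HDAC8 2: without that library the log2 fold change was 0.45 (DESeq2 adjusted p = 0.0934), while over all alternatives other than the test against the fold change minimum the adjusted p ran from 7.57e-09 to 0.0934. Without HDAC8 1 the log2 fold changes were -0.64 for B4GALT5 and 0.90 for B4GALT6, and both stayed past the thresholds.

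The balance of the isoenzymes was then compared within each library, where scaling between libraries cancels. B4GALT6 gave 29.9%, 25.1% and 28.6% of the summed level per length of both genes in EV, and 45.0%, 57.7% and 47.8% in the libraries labelled HDAC8. The groups did not overlap, and the mean share was 27.9% ± 2.46 against 50.1% ± 6.65 (SD, n = 3). The log2 ratio of B4GALT6 to B4GALT5 counts differed by 1.38 between the groups, a 2.61-fold change of the ratio (exact two-sided permutation test, p = 0.1, 0.2 adjusted over 4 ratios). The share and this ratio follow from the changes of both genes given above and are no further evidence of them. With 3 libraries against 3, p = 0.1 is the smallest value that an exact permutation test allows. The sum of both genes overlapped between the groups. On the scale of normalized counts per kilobase it was 3463.9, 3606.7 and 3459.5 in EV and 2435.6, 3641.0 and 3265.2 in the libraries labelled HDAC8, with HDAC8 1 the lowest and HDAC8 2 above all EV libraries.

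**Figure D2:**
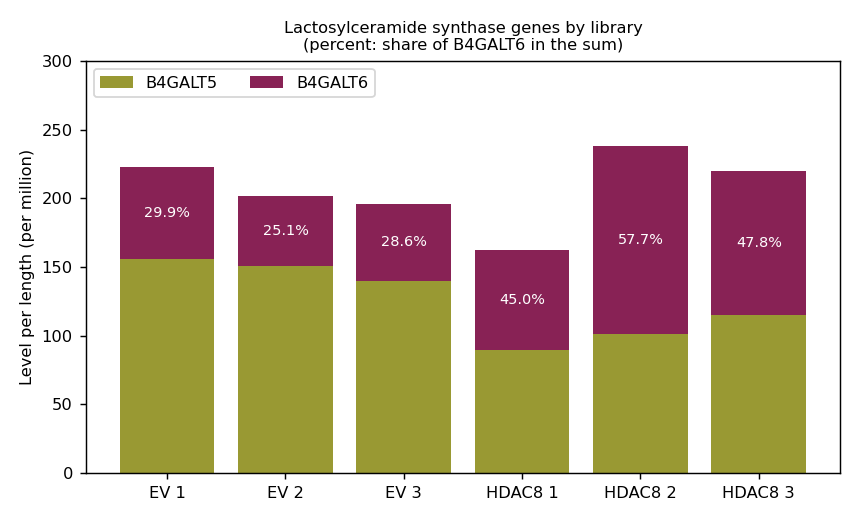
Stacked bars of the level per length (genes of a library sum to 1000000) of B4GALT5 and B4GALT6 in each of the 6 libraries, with the share of B4GALT6 printed as a percentage. The share is 25.1% to 29.9% in EV and 45.0% to 57.7% in the libraries labelled HDAC8, while the height of the bars overlaps between the groups.

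The largest change in size among the 10 genes by DESeq2 log2 fold change was in ST3GAL5 (ENSG00000115525, chromosome 2, 85837120 to 85905199, minus strand). It encodes GM3 synthase, the sialyltransferase through which GM3, GD3 and GD2 are all made. Its normalized counts were 2817.6, 2412.4 and 2456.9 in EV and 1159.5, 1525.0 and 1262.1 in the libraries labelled HDAC8, with a wide gap between the groups. The mean fell by 48.7% (fitted), from 2562.3 ± 222.2 to 1315.5 ± 188.5 (SD, n = 3), which is 1.95-fold lower. On the log2 scale the change was -0.96 (SE 0.18) with a DESeq2 adjusted p of 6.31e-06, and this change ran from -1.08 to -0.88 over 15 alternatives. Its call was kept in all of them except the test against the fold change minimum itself (DESeq2 adjusted p = 0.605), which also called neither B4GALT5 nor B4GALT6.

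To show the sequence at the start of the 2 genes that fell, their promoter windows were taken from RefSeq (GRCh38.p14), from 250 bases before to 50 bases after the start of transcription, each on the strand of the gene. For ST3GAL5, with 5 windows in the table, the one at the start of the GENCODE canonical transcript is shown. Capitals mark the GC box GGGCGG on either strand, which the Sp family of factors binds, and CATGTG, an E-box of the kind that MITF can bind. The windows are chr20:49713829-49714128 for B4GALT5 and chr2:85888941-85889240 for ST3GAL5, both on the minus strand.
B4GALT5: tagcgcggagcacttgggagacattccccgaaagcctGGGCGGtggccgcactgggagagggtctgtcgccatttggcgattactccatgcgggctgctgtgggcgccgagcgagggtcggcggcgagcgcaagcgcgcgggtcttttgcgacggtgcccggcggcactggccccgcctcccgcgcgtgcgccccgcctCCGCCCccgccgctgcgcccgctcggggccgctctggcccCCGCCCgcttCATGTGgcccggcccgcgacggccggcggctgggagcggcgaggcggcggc
ST3GAL5: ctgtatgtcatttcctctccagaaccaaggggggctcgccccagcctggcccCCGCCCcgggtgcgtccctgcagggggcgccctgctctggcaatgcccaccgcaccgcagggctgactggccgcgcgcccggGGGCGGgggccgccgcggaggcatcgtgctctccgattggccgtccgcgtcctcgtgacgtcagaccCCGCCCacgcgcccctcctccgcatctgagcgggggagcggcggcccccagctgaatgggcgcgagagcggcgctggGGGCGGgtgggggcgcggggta
The window of B4GALT5 was 77.3% G or C and held 3 GC boxes, and that of ST3GAL5 was 76.3% G or C and held 4, none of them overlapping another. Of the 10 genes, 6 had a window in the table (UGCG, B4GALT5, ST3GAL5, ST8SIA1, NEU3 and GM2A), and all 6 windows held a GC box, as did 45.0% of all 35116 windows. CATGTG was present in 1 of the 6 windows, that of B4GALT5, and in 11.1% of all windows. The AP-1 motif TGANTCA, which JUN and FOS proteins bind, was in 0 of the 6 and in 7.71% of all windows, and the E-box CACGTG in 0 of the 6 and in 7.26%. Both strands were searched for each motif. A match describes these letters only.

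The sialyltransferases that act on GM3 were examined next. ST8SIA1 (ENSG00000111728, chromosome 12, 22063773 to 22437041, minus strand) encodes GD3 synthase. Its normalized counts were 3851.5, 2932.6 and 3422.3 in EV and 2555.0, 2715.0 and 2845.4 in the libraries labelled HDAC8. The groups did not overlap but lay close, with EV 2 and HDAC8 3 nearest to each other. DESeq2 gave a log2 fold change of -0.33 (SE 0.16) and an adjusted p of 0.193, so the gene was not called. On the opposite strand ST8SIA1 overlaps CMAS by 1902 bases, so without strand-specific counts some reads there cannot be assigned. ST8SIA5 (ENSG00000101638, chromosome 18, 46667821 to 46759257, minus strand), whose product adds further sialic acids to GD3 and other gangliosides, was close to the limit of detection. Its normalized counts were 18.9, 40.2 and 5.91 in EV and 53.9, 4.10 and 45.7 in the libraries labelled HDAC8, where a floor of 3 counts is 2.57 to 3.27. The groups overlapped, and a change from 0.304-fold to 8.38-fold lay within the 95% interval (DESeq2 adjusted p = 0.844). A difference in ST8SIA5 was therefore not detectable with these few counts and their wide spread within each group.

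The ratio of ST8SIA1 to ST3GAL5 counts, for the successive steps to GM3 and GD3, follows from the changes of the genes given above and is no further evidence of them. The log2 ratio of ST8SIA1 to ST3GAL5 was 0.45, 0.28 and 0.48 in EV and 1.14, 0.83 and 1.17 in the libraries labelled HDAC8, with no overlap. The difference of 0.65 is a 1.56-fold change of the ratio (exact two-sided permutation test, p = 0.1, 0.2 adjusted over 4 ratios). These are ratios of counts and not of levels, since the transcripts differ in length.

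B4GALNT1 and B3GALT4 carry the pathway beyond GM3 and GD3. B4GALNT1 (ENSG00000135454, chromosome 12, 57623409 to 57633239, minus strand) encodes the GM2 and GD2 synthase. It had 1061.2, 1262.7 and 1131.9 normalized counts in EV and 1027.0, 1366.2 and 1392.8 in the libraries labelled HDAC8, and the groups overlapped. On the log2 scale the change was 0.13 (SE 0.21) with a DESeq2 adjusted p of 0.821, and the 95% interval of the fold change ran from 0.820 to 1.46. Its overlapping neighbour on the opposite strand, the pseudogene SLC26A10P, had 0.0 to 160.29 deposited counts per library. B3GALT4 (ENSG00000235863, chromosome 6, 33277123 to 33284832, plus strand) encodes the galactosyltransferase that makes GM1 and GD1b, and had 50.3, 59.8 and 12.8 normalized counts in EV and 88.1, 55.3 and 55.5 in the libraries labelled HDAC8. EV 3 was far below the other libraries and HDAC8 1 was the highest, and the gene was not called (log2 change 0.70 with SE 0.83, DESeq2 adjusted p = 0.727). B3GALT4 shares 5725 bases with WDR46 on the opposite strand, which had 1814 to 4744 deposited counts per library, with HDAC8 1 the highest for both genes. The log2 ratios of B4GALNT1 to ST8SIA1 and of B3GALT4 to B4GALNT1 overlapped between the groups, with differences of 0.45 and 0.82 (exact two-sided permutation test, p = 0.2 and 0.6, adjusted 0.267 and 0.6).

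**Figure D3:**
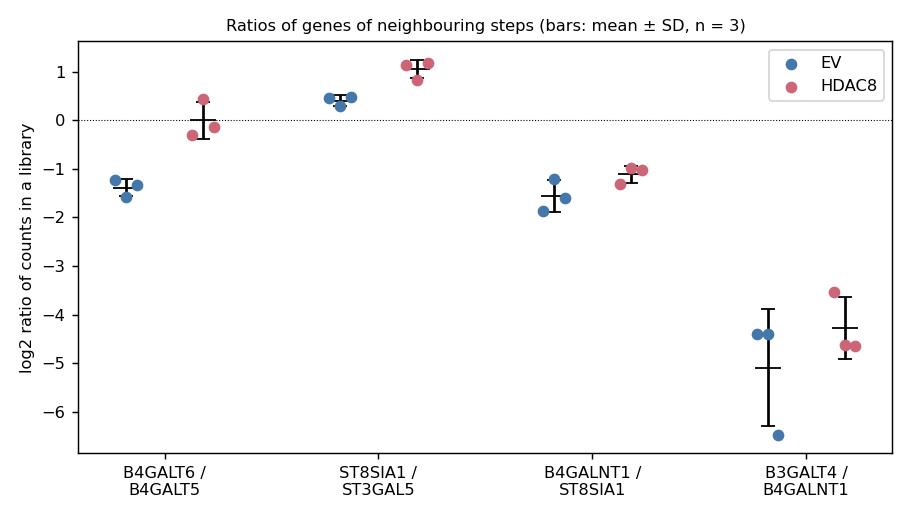
The log2 ratio of the counts of 2 genes within each library, for 4 pairs of neighbouring steps or isoenzymes, with points for libraries and bars for the mean ± SD. The groups separate for B4GALT6 to B4GALT5 (difference 1.38) and for ST8SIA1 to ST3GAL5 (0.65), and overlap for the other pairs.

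Breakdown of gangliosides is represented by NEU3 and GM2A. NEU3 (ENSG00000162139, chromosome 11, 74988279 to 75018893, plus strand) encodes the sialidase of the plasma membrane that prefers gangliosides. It had 3782.3, 3130.5 and 2796.8 normalized counts in EV and 4864.6, 3926.6 and 4384.1 in the libraries labelled HDAC8. All HDAC8 libraries were above all EV libraries, with EV 1 and HDAC8 2 closest. DESeq2 gave a log2 fold change of 0.44 (SE 0.17) and an adjusted p of 0.0629, and neither threshold for a call was met. GM2A (ENSG00000196743, chromosome 5, 151212150 to 151270440, plus strand) encodes the GM2 activator, the lysosomal cofactor that presents GM2 to hexosaminidase. It had 6305.2, 7173.5 and 6896.9 normalized counts in EV and 4161.7, 4945.6 and 5865.1 in the libraries labelled HDAC8, with no overlap. Its adjusted p passed and its size did not (log2 change -0.45 with SE 0.16, DESeq2 adjusted p = 0.0421), so it was not called. At this p threshold with any fold change, 13.0% of all genes passed. Over the same alternatives the adjusted p of GM2A ran from 0.0184 to 0.180 and that of NEU3 from 0.0388 to 0.362.

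**Figure D4:**
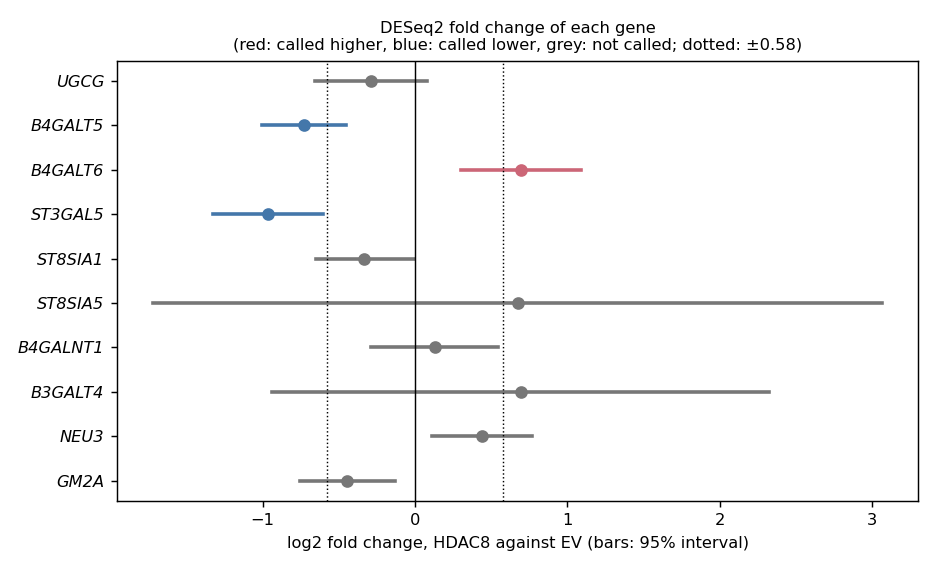
DESeq2 log2 fold change of each gene (horizontal axis, HDAC8 against EV) with its 95% interval, and dotted lines at the minimum of 0.58 in either direction. ST3GAL5 and B4GALT5 lie to the left and B4GALT6 to the right with intervals that leave out 0. The intervals of ST8SIA1, GM2A and NEU3 leave out 0 as well, though these genes were not called. Intervals are not adjusted over genes. The widest belong to ST8SIA5 and B3GALT4, the genes with the fewest counts.

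Levels between genes were compared per length, as counts per kilobase of the canonical transcript, scaled so that all genes sum to 1000000 in each library. On this scale the order in EV was B4GALT5 (149 ± 8.12), GM2A (111 ± 1.98), UGCG (63.2 ± 9.74), B4GALT6 (57.7 ± 7.99), ST3GAL5 (34.7 ± 5.79), NEU3 (32.4 ± 7.51), ST8SIA1 (20.8 ± 4.33), B4GALNT1 (12.6 ± 0.609), B3GALT4 (1.43 ± 0.868) and ST8SIA5 (0.0909 ± 0.0688, all SD, n = 3). The ranges of UGCG and B4GALT6 overlapped, as did those of ST3GAL5 and NEU3, and all other neighbours in this order were apart. In the libraries labelled HDAC8 the order began with B4GALT6 (105 ± 31.9), B4GALT5 (102 ± 12.7) and GM2A (92.1 ± 16.4), whose ranges overlapped each other in turn. UGCG (58.1 ± 12.9) and NEU3 (49.3 ± 5.81) followed with overlapping ranges, and then ST3GAL5 (20 ± 2.57) and ST8SIA1 (18.5 ± 1.11), which overlapped as well. B4GALNT1 (15.6 ± 2.50), B3GALT4 (2.59 ± 0.749) and ST8SIA5 (0.167 ± 0.129) kept the last places. Over the 14314 genes that averaged 50 or more normalized counts this scale lay 0.17 (log2, median) higher in HDAC8 than in EV, so it serves here for the order of genes within a group and for shares within a library, and changes of the 10 genes between groups were read from normalized counts. The length chosen matters most for ST3GAL5, whose mean level in EV was 13.0 when all annotated exons were counted as its length. The order then changed, with ST3GAL5 under NEU3 (37.3) and ST8SIA1 (19.5) in EV. In the libraries labelled HDAC8 its level was then 7.9, under ST8SIA1 (18.3) and B4GALNT1 (15.7), and B4GALT5 (149.9) was above B4GALT6 (139.9).

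The rest of sphingolipid and sialic acid metabolism was read from 7 lists of 71 genes in all. Of these 62 had an adjusted p, 5 were called higher and 7 lower, which is 19.4% against the 11.0% of all genes and the 17.2% of genes that averaged 1000 or more normalized counts. The median log2 fold change was -0.02. In ceramide synthesis, upstream of UGCG, 0 of 15 genes were called, with a median of -0.03. CERS2, the ceramide synthase with the highest level per length of this list in both groups (DEGS1 is highest with all annotated exons as length), had 6065.0 ± 648.1 normalized counts in EV and 5132.1 ± 579.1 in the libraries labelled HDAC8 (SD, n = 3, DESeq2 adjusted p = 0.364).

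Ceramide also leaves toward sphingomyelin, and 1 gene of this list of 6 was called higher and 2 lower (median -0.02). SGMS2, a sphingomyelin synthase of the plasma membrane, had 728.8, 508.1 and 649.2 normalized counts in EV and 1015.0, 2474.3 and 2071.2 in the libraries labelled HDAC8. Every HDAC8 library was above EV and HDAC8 1 was the lowest of them (log2 change 1.56 with SE 0.29, DESeq2 adjusted p = 3.99e-06). SAMD8, which makes ceramide phosphoethanolamine, fell by 0.74 on the log2 scale (SE 0.20, DESeq2 adjusted p = 0.00295), and without HDAC8 1 by 0.58, just under the minimum. GLTP, a glycolipid transfer protein, was lower by a log2 fold change of -0.72 (DESeq2 adjusted p = 0.0435), a call kept in 7 of 14 alternatives whose adjusted p ran from 0.0161 to 0.237, and lost when any of EV 1, EV 2, EV 3, HDAC8 1 or HDAC8 3 was left out. CERT1, the ceramide transfer protein, had the highest level per length of the list over all 6 libraries, though SAMD8 and GLTP were above it in EV. With all annotated exons as length, CERT1 (9.98 in EV and 11.4 in HDAC8) was under SAMD8 (41.3 and 29.3). CERT1 had 1754.6 ± 135.8 against 1686.0 ± 403.6 normalized counts (SD, n = 3, DESeq2 adjusted p = 0.938).

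Other glycolipid branches were read from a list of 6 genes, most of them with few counts. Of 5 genes with an adjusted p, 2 were called higher and 1 lower. The median log2 fold change of 1.42 was the value of GAL3ST1 alone, which was not called (SE 1.75, DESeq2 adjusted p = 0.739). It did not move with genes at the floor set to their bound, since these genes lie on either side of it. B3GALNT1, the globoside synthase, had 0, 20.5 and 34.5 normalized counts in EV and 324.1, 512.1 and 349.6 in the libraries labelled HDAC8 (log2 change 4.43 with SE 1.34, DESeq2 adjusted p = 0.0110). The groups were far apart, though the call was kept in 9 of 13 alternatives (adjusted p 9.98e-12 to 0.109) and lost without EV 2, HDAC8 1, HDAC8 2 or HDAC8 3. UGT8, which makes galactosylceramide from ceramide, had 28, 89 and 53 deposited counts in EV and 0 in each library labelled HDAC8, at least 18.5-fold lower against a floor of 3 counts per library. A4GALT, the globotriaosylceramide synthase that acts on lactosylceramide, had 0 counts in EV and 4, 43 and 8 in the libraries labelled HDAC8, at least 6.30-fold higher on average. HDAC8 2 held most of these counts, and without it DESeq2 gave no adjusted p. The call was kept in 5 of 12 alternatives, whose adjusted p ran from 0.0288 to 0.136 (the latter with edgeR), and was lost without EV 1, EV 2, EV 3 or HDAC8 3. B3GNT5, which starts the lacto series and had the highest level per length of the list over all 6 libraries, though under B3GALNT1 in the libraries labelled HDAC8, was not called (345.8 ± 126.2 against 402.6 ± 215.7 normalized counts, SD, n = 3, DESeq2 adjusted p = 0.870).

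Later sialylation of gangliosides and related glycans had 2 of 7 genes called higher and 0 lower (median 0.23). ST3GAL1, a sialyltransferase of O-glycans that can also act on gangliosides and the gene of the list with the highest level per length in both groups, had 2821.8, 3295.9 and 3716.9 normalized counts in EV and 7205.8, 7237.7 and 7364.6 in the libraries labelled HDAC8. The HDAC8 libraries lay within a narrow range 2.22-fold above EV by the fit (log2 change 1.15 with SE 0.15, DESeq2 adjusted p = 1.48e-12). ST6GALNAC3, which adds sialic acid to N-acetylgalactosamine of glycans including gangliosides, had 1734.4, 1414.0 and 1760.4 against 1784.6, 3415.5 and 3230.9 normalized counts. HDAC8 1 was barely above EV (log2 change 0.78 with SE 0.23, DESeq2 adjusted p = 0.0102), and the call was lost without EV 2, HDAC8 2 or HDAC8 3 (adjusted p 2.33e-08 to 0.116 over 14 alternatives).

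Lysosomal and other breakdown of glycolipids had 0 of 12 genes called higher and 3 lower, with a median log2 fold change of -0.40. CTSA, the protective protein that keeps the lysosomal sialidase and beta-galactosidase stable, had 21367.4, 29238.7 and 23162.3 normalized counts in EV and 12711.6, 14044.2 and 14887.1 in the libraries labelled HDAC8 (log2 change -0.82 with SE 0.15, DESeq2 adjusted p = 9.30e-07). SMPD1, the acid sphingomyelinase, had 1156.6, 1841.7 and 1516.1 against 786.7, 674.9 and 799.3 (log2 change -0.998 with SE 0.23, DESeq2 adjusted p = 3.59e-04). ASAH1, the acid ceramidase, had 8998.1, 8912.5 and 8895.7 against 4405.4, 6567.9 and 5999.0 (log2 change -0.66 with SE 0.16, DESeq2 adjusted p = 8.79e-04), and without HDAC8 1 the log2 fold change of -0.51 was under the minimum. In all 3 genes the groups did not overlap. SMPD1 and ASAH1 act on sphingomyelin and ceramide and not on gangliosides. The enzymes that cut GM1 and GM2, GLB1 and HEXA, had log2 fold changes of -0.45 and -0.23 and were not called (DESeq2 adjusted p = 0.0998 and 0.312). PSAP, the precursor of the saposins and the gene of the list with the highest level per length in both groups, had 85846.9 ± 15548.7 against 88757.1 ± 16563.1 normalized counts (SD, n = 3, DESeq2 adjusted p = 0.933). GALC is listed at 0 in every library.

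**Figure D5:**
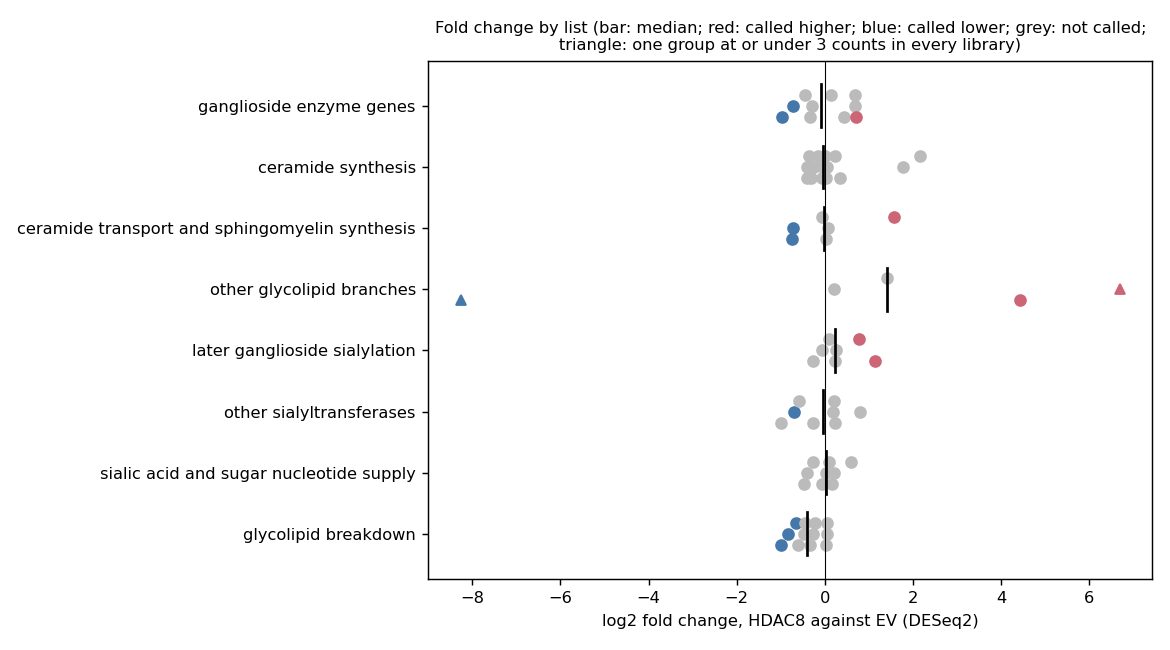
DESeq2 log2 fold changes (horizontal axis, HDAC8 against EV) of the genes with an adjusted p in 8 lists, with 1 point per gene, a bar at the median of each list and triangles for genes with at most 3 counts in every library of a group, whose fitted values are not bounds. Called genes lie on both sides of 0 among the 10 ganglioside genes, while ceramide synthesis has none and glycolipid breakdown has 3, all lower.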

How the data were processed

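RNA-seq was analysed for 6 WM164 libraries, 3 EV and 3 HDAC8, grouped by the treatment labels. Per the methods of the study, the authors used Trimmomatic for trimming, STAR for alignment to the transcriptome and RSEM for quantification. What they deposited are RSEM's expected counts, unscaled between libraries. RSEM shares reads between genes they could come from. Genome build, annotation and strand setting are not given in the sources used here.

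Expected counts were rounded to whole numbers. The groups were compared with DESeq2 1.42.0 in R 4.3.3 (two-sided Wald test, no covariates) on the 26162 genes whose counts summed to 10 or more. Size factors ran from 0.918 to 1.17. Benjamini-Hochberg adjustment covered all genes, and DESeq2 gave no adjusted p for 5141, which were left out of counts of calls. A floor of 3 counts and 95% intervals were used. The floor covers counting error only. Positions and lengths came from GENCODE release 44 by Ensembl identifier (56558 of 60504 identifiers found). Alternatives used edgeR 4.0.16 and limma 3.58.1 (voom), other size factors and filters, a replicate block and each library left out. Fits were tested on simulated data, where no tool called a changed gene with the wrong sign and DESeq2 made more false calls than edgeR or limma-voom and more than its threshold implies.

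The 10 ganglioside genes and the lists were chosen with earlier results of these data known. Named genes are these 10 genes, HDAC8, every called gene of the lists and the gene of each list with the highest level per length over all libraries. GLB1, HEXA, GALC, GAL3ST1, TYRP1, DEGS1 and ST6GAL1 were named after their values were seen, as were the single markers of other cell types.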

Additional observations from a re-analysis of the deposited data

How the results depend on the processing

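The 3 calls among the 10 ganglioside genes kept direction and side of the thresholds in every alternative except those named here. In the DESeq2 test against the fold change minimum, 0 of the 10 genes were called (0 higher and 0 lower), and 292 genes higher and 291 lower over the whole table. B4GALT6 was not called without HDAC8 replicate 2. The 3 calls were also made by edgeR and limma-voom. Across the fits that each left out 1 library, 0 to 1 of the 10 genes were higher, and the number of all genes called lower ran from 746 (without EV replicate 3) to 1378 (without HDAC8 replicate 1). Of 149 alternatives of single genes among the 10, 145 kept direction and call and 4 lost the call, with none reversed. Most of the 149 belong to the 7 genes that were not called and so had no call to lose. All 4 losses fell among the 3 called genes, which had 15 alternatives each. ST8SIA5 did not pass the filter of at least 10 counts in every library. With the replicate block the same number of the 10 genes was called (1 higher and 2 lower), with 1075 genes higher and 1078 lower over the whole table. No pairing by replicate number was detectable in the counts. Deviations from the group means correlated between libraries of the same number at only -0.027, -0.066 and 0.04 over 14451 genes. These values cannot tell whether libraries of the same number were prepared together. Among the 71 further pathway genes, whose alternatives were chosen after seeing the data, 2 higher and 1 lower passed the test against the fold change minimum, and 2 (without HDAC8 replicate 2 or 3) to 4 were higher across the fits that each left out 1 library. The cause was not tested. The median log2 fold change over all genes was 0.04 with total-count size factors. Few counts limit ST8SIA5, B3GALT4, A4GALT and UGT8.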

Other observations

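Sialyltransferases outside the ganglioside pathway were read from the same fit. Of 8 genes with an adjusted p, 0 were called higher and 1 lower, with a median log2 fold change of -0.04. The gene that fell was ST3GAL6, which sialylates glycoproteins, with 4488.0, 4000.0 and 4522.7 normalized counts in EV and 2153.1, 2968.0 and 2951.1 in the libraries labelled HDAC8 (log2 fold change -0.69, SE 0.17, DESeq2 adjusted p = 0.00111). Without HDAC8 replicate 1 its log2 fold change was -0.55, under the minimum. ST3GAL4 had the highest level per length of this list over all 6 libraries, though ST3GAL6 was above it in EV. With all annotated exons as length, ST3GAL4 (32.5 in EV and 44.3 in HDAC8) was under ST6GAL1 (39.3 and 54.7). ST3GAL4 had 2348.3 ± 371.3 against 2686.2 ± 363.6 normalized counts (SD, n = 3, DESeq2 adjusted p = 0.628). ST8SIA2, which makes polysialic acid, had no count in any library.

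The supply of activated sialic acid and sugars had 0 of 9 genes called in either direction, with a median log2 fold change of 0.03. UGP2, which makes UDP-glucose and had the highest level per length of this list in both groups on canonical transcript lengths, had 3730.7 ± 404.5 normalized counts in EV and 3814.4 ± 780.4 in the libraries labelled HDAC8 (SD, n = 3, DESeq2 adjusted p = 0.964). CMAS, which activates sialic acid and overlaps ST8SIA1 on the opposite strand, had 1266.7, 1031.1 and 1231.4 against 998.7, 859.3 and 702.4 normalized counts. Its groups did not overlap, and it was not called (log2 fold change -0.46, SE 0.23, DESeq2 adjusted p = 0.187). CMAS and ST8SIA2 were named after their values had been seen.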
